A study of Mus musculus with 2 samples.

Results

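The natural killer gene complex of the mouse was examined here as the 1800 bins of 1 kb between 128500001 and 130300000 on chromosome 6 (mm9), out of 2246042 bins of the series that held a read. The bins were chosen by position alone, as the interval that holds the Klrb1 and Clec2 genes, Cd69 (placed near 129.22 Mb), Klrd1, Klrk1, the Klrc genes and, last, the Klra array. The data are 2 chromatin immunoprecipitation sequencing (ChIP-seq) libraries from mouse Th2 cultures, a helper T cell type known for making interleukin 4. Both came from splenic CD4+CD62L+ cells of C57BL/6 mice that were stimulated through CD3 and CD28 for 5 days, with 10 ng/ml IL-4 and 2 µg/ml of an antibody against IFN-g, and then left without stimulation for 3 days. One was precipitated with an antibody to acetylated histone H3 (H3KAc), a mark of active promoters and enhancers, and the other with polyclonal rabbit IgG, which gives the background. Both shared strain, culture and protocol, and the number of animals is not stated in the labels. Th2 marker genes were not examined here. The comparison asks where acetylated H3 stood above that background.

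The complex encodes C-type lectin receptors by which lymphocytes read other cells. Klrb1 genes encode NKR-P1 receptors, and some Clec2 genes encode their ligands: Clec2d encodes the ligand of the inhibitory receptor made by Klrb1b. Cd69 encodes an early activation antigen that T cells place on their surface within hours of stimulation and that holds them in lymphoid tissue. Klrd1 encodes CD94, which pairs with the NKG2 chains made by Klrc genes, and Klrk1 encodes NKG2D, a receptor for stress ligands. Klra genes encode the Ly49 receptors for MHC class I, which rodents have multiplied into near-identical copies. Most of these receptors are known from natural killer cells and not from helper T cells.

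Gene positions on mm9 were not used here, so regions are named by coordinates, and gene names serve only for order. In the RefSeq gene table, which is on GRCm38.p6, 76 genes lie from Klrb1a to Klra1, of which 42 are protein coding. The run opens with Klrb1 and Clec2 genes (6 and 8 symbols in all). Clec2d, Gm38906 and the noncoding gene 2310001H17Rik come just before Cd69, and 29 of the 76 genes lie before it. After Cd69 come Clec2m, lectin genes of myeloid and endothelial cells such as Clec7a (dectin-1, a receptor for fungal glucan), then Gabarapl1, an autophagy gene, and Klre1, Klrd1, Klrk1, Klrc3, Klrc2 and Klrc1. The run ends with 13 Klra symbols, 10 of them protein coding.

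Copies matter for these data because every deposited read was 35 bases long. Promoters of 300 bases were found in the RefSeq promoter table for 47 of the 76 genes, with none for Cd69 or Klrd1. In 15 of the 47 (31.9%), at least 1 run of 35 bases also occurred in the promoter of another gene that did not overlap it, against 11.3% of all 27025 genes of the table. The share was 7 of 10 among Klra genes, 3 of 6 among Clec2 genes and 2 of 3 among Klrc genes, and 0 of 6 among the myeloid and endothelial lectins. The pair with the most shared runs was Klrc2 and Klrc3, both NKG2 chains, with 182 of 266 possible runs in common. Both promoters are printed to show what a read of that length can and cannot tell apart. They lie on the minus strand of GRCm38.p6 (RefSeq) at chr6:129660507-129660806 (Klrc2) and chr6:129643239-129643538 (Klrc3), positions that do not carry over to mm9. Capitals mark the bases covered by a shared run, 250 of 300 in each.
Klrc2: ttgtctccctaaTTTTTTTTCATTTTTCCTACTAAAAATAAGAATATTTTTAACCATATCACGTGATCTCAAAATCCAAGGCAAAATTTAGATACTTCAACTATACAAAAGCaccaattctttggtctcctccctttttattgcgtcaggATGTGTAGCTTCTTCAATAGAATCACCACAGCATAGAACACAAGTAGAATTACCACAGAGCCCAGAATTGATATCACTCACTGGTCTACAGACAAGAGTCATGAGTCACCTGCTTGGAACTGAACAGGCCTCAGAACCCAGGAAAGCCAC
Klrc3: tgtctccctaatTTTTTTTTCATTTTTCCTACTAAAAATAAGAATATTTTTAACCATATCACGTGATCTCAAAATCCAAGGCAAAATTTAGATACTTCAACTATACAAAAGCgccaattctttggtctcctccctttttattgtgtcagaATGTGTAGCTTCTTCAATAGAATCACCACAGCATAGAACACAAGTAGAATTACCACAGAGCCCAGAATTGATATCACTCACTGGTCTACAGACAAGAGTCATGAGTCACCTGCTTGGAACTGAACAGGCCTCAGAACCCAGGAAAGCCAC
A read from the capitals would align equally well to both genes, whereas one over the lower-case stretches would not. The sources used here do not say how reads with several alignments were treated.

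The H3KAc library held 19711169 distinct read positions and the IgG library 1897666, and levels are given as reads per 1000000 distinct positions (RPM). All intervals are exact 95% intervals that cover counting error only, because each antibody had 1 library, so no difference here has a replicate check and no p-value was computed. The complex held 9848 H3KAc and 630 IgG positions, 5.47 and 0.350 per kb. A position was read 1.08 times in H3KAc and 3.59 times in IgG on average in the complex. IgG had no read in 1432 of the 1800 bins, which limits every ratio of a single bin.

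As a whole, the complex was below the mean of all covered bins in both libraries, and further below it in IgG. Its H3KAc over IgG ratio was therefore high. H3KAc averaged 0.278 RPM per kb (0.272 to 0.283) and IgG 0.184 RPM per kb (0.170 to 0.199), with bins without a read included. Over its 1570 covered bins the levels were 0.318 and 0.211 RPM per kb, against 0.445 RPM per kb over all covered bins in either library. The ratio was 1.50 (1.39 to 1.63), and 1.02 (1.02 to 1.03) over the covered bins of the rest of chromosome 6. The 1800 kb just below the complex had 0.773 RPM per kb of H3KAc and a ratio of 0.913 (0.878 to 0.949). The 1800 kb just above it had 0.133 RPM per kb and a ratio of 0.868 (0.793 to 0.952). The complex thus lay between its flanks in H3KAc level, while its ratio was above both and the intervals did not overlap.

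Windows of the same length over all chromosomes show how unusual the ratio was in these libraries. Among 1386 windows with a read in at least 50% of their bins, 558 had less H3KAc than the complex and 389 had less IgG. The ratio of the complex was above that of 1384 of the 1386. Ratios of all windows had a median of 1.04, with quartiles at 0.940 and 1.13. The 290 windows within 0.8 to 1.25 times the H3KAc level of the complex had a median of 1.12, and 1 of them exceeded the complex. Windows that overlap the complex were not left out. The windows are no replicates, so this place is a description. Without the 11 bins of the complex that were highest in H3KAc the ratio was 1.41 (1.30 to 1.53), still above 1.

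**Figure D1:**
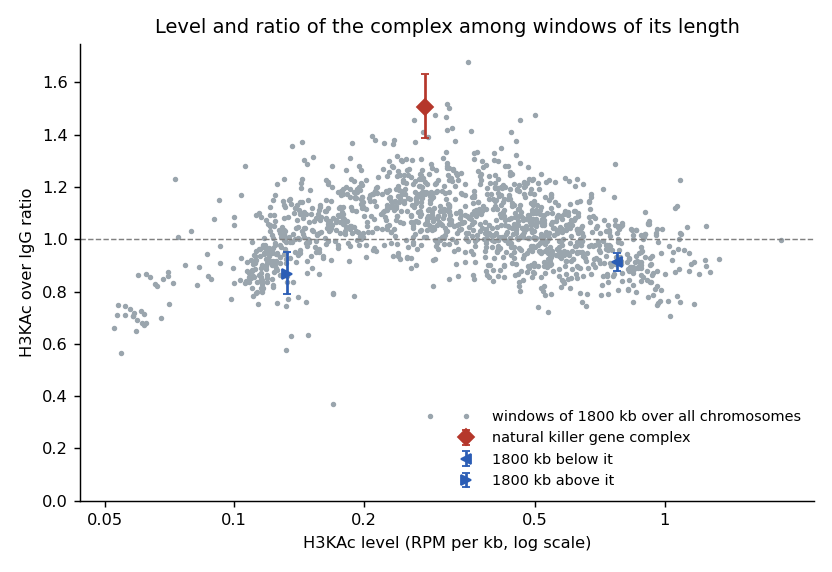
H3KAc level (x axis, RPM per kb, log scale) and H3KAc over IgG ratio (y axis) of 1386 windows of 1800 kb, with the natural killer gene complex as a diamond and its 2 flanks as triangles. Bars are 95% intervals (counting error only). The complex sits at 0.278 RPM per kb and a ratio of 1.50, above all but 2 windows, and both flanks lie below 1.

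Strong H3KAc peaks were few and lay mostly below the Cd69 position. A bin was placed in the top class when it held at least 47 H3KAc reads, the count reached by no more than 1% of covered bins (0.974% of them). In the complex 11 of 1570 covered bins reached it (0.701%), so such bins were not more frequent than elsewhere. They held 775 H3KAc and 10 IgG reads, 3.57 RPM per kb (3.33 to 3.84) against 0.479, a ratio of 7.46 (4.04 to 15.6). Over all 21882 bins of this class the ratio was 1.95 (1.94 to 1.97), because IgG was also high there, at 2.14 RPM per kb. Since the class was chosen on H3KAc, the ratios of its bins are given as a description. Joined across single bins, the 11 bins formed 8 regions, of which 7 lay below the Cd69 position and 1 above it.

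The highest single bin of the complex, chr6:128749001-128750000, held 102 H3KAc reads and no IgG read. It had 5.17 RPM, more than 99.8% of all covered bins, and 10.9 times the level of the 30 kb on each side of it. Reads were balanced between the strands, with 50 on plus and 52 on minus, and 44 of them fell in the 200 bp from 128749601 to 128749800. Further up, 2 regions lay close together. The first, chr6:128788001-128790000, had 141 H3KAc and 3 IgG reads, a ratio of 4.52 (1.52 to 22.2), and the second, chr6:128792001-128794000, had 149 and 4, a ratio of 3.59 (1.37 to 13.3). The second was the region of the class with the most H3KAc reads in all. Below these, chr6:128710001-128711000 held 81 H3KAc reads (4.11 RPM) and a single IgG read, and chr6:128714001-128715000 held 52 and none (2.64 RPM). These 5 regions stand in 1 part of 100 kb, chr6:128700001-128800000, on the side of Cd69 where the RefSeq order has the Klrb1 genes and all Clec2 genes but Clec2m. None was assigned to a gene.

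**Figure D2:**
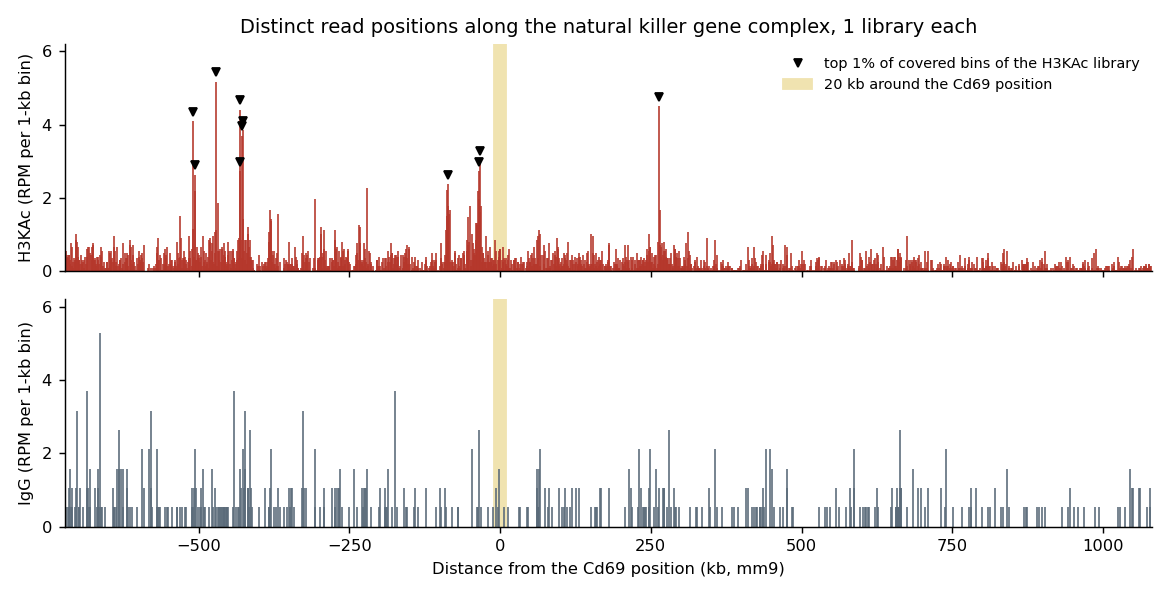
H3KAc (upper panel) and IgG (lower panel) in RPM per 1-kb bin along the complex, against the distance from the Cd69 position in kb; each line is 1 bin, triangles mark the 11 bins in the top 1% of the H3KAc library, and the band marks the 20 kb around the Cd69 position. Of the 11 marked bins 10 lie below the band and 1 above it, and none lies inside.

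Above the Cd69 position a single strong peak was found. The bin chr6:129483001-129484000 lay 263 kb above it. It had 89 H3KAc reads (4.52 RPM) and 2 IgG reads, a ratio of 4.28 (1.15 to 35.9), and stood 10.9 times above the H3KAc level of the 30 kb on each side. It had 54 plus-strand and 35 minus-strand reads. Joined with the bin above it, the region held 122 and 2 reads, a ratio of 5.87 (1.59 to 49.0).

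With IgG counted in the same bin, few bins of the complex could be called. A bin with at least 5 reads was called enriched when the lower bound of its ratio was above 2. This held for 2 of 781 bins tested in the complex (0.256%) and for 0.0836% of the 1409765 tested over all chromosomes. The called bins were chr6:128749001-128750000, with a lower bound of 2.61, and chr6:128788001-128789000, with 87 H3KAc reads, no IgG read and a lower bound of 2.22. Neither ratio has an upper bound, since IgG was at 0 reads. A lower bound above 1 was met by 10 bins of the complex (1.28%), against 0.651% of all bins tested. Of these 10 bins, 8 had no IgG read and 9 lay below the Cd69 position. Bins called by their ratio were picked for few IgG reads as well as for H3KAc, so their bounds lean upwards.

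A second rule, which took IgG from 11 bins with the tested bin in their middle, called more of the complex. It called 62 of 1208 bins (5.13%), against 1.54% of the 1969527 bins tested over all chromosomes. IgG of the complex, with its empty bins included, was 0.414 times the mean over all covered bins, and low regional IgG enters these calls. The 62 bins formed 40 regions, of which 29 were 1 kb wide. Of the bins, 43 lay below the 20 kb around the Cd69 position, 1 inside and 18 above. A single part of 100 kb, chr6:129100001-129200000, held 22 of them.

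That part, just below the Cd69 position, held the widest regions called by the second rule. Its H3KAc level was 0.575 RPM per kb (0.542 to 0.610), the second highest of the 18 parts of 100 kb, and its IgG level 0.116 RPM per kb (0.0727 to 0.176). Its ratio of 4.96 (3.26 to 7.95) was the highest of the 18, and its interval overlapped those of 4 other parts, which had 10 to 25 IgG reads each. Its median bin held 6 H3KAc reads and 12 of its 100 bins none, against 9 and 0 in chr6:128700001-128800000. The latter held 74 IgG reads against 22 here, and low regional IgG enters calls of the second rule. Unlike the peaks further down, the called bins of chr6:129100001-129200000 included plateaus of several kb. The widest region of the second rule, chr6:129130001-129137000, held 242 H3KAc reads against a single IgG read, and its ratio was 23.3 (4.14 to 924). Its 7 bins held between 22 and 47 reads each, or 1.12 to 2.38 RPM with a median of 1.67. The plateau stood 7.30 times above the 30 kb on each side, which averaged 0.240 RPM per kb in H3KAc and 0.0790 in IgG. Its reads were spread over the strands, 125 on plus and 117 on minus. Its highest bin, chr6:129134001-129135000, was the one top-class bin of the plateau, with 47 H3KAc reads and no IgG read.

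The region nearest to Cd69 among the broad ones was chr6:129183001-129189000, whose upper edge lay 31 kb below the Cd69 position. It held 263 H3KAc and 7 IgG reads, 2.22 RPM per kb and a ratio of 3.62 (1.73 to 9.09). Its 6 bins ranged from 1.62 to 3.04 RPM. Of its IgG reads, 5 fell in the single bin from 129184001 to 129185000. The 3 bins next to that one, chr6:129185001-129188000, held 146 H3KAc reads and no IgG read, 7.41 RPM (6.25 to 8.71) in all, with a lower bound of 3.76 for the ratio. Reads of this core were split 76 and 70 between the strands.

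Between these plateaus, weaker regions were called. They were chr6:129164001-129168000 with 71 H3KAc reads and chr6:129158001-129161000 with 30, neither with an IgG read. Their levels, 0.901 and 0.507 RPM per kb, were 1.33 and 0.645 times those of the 30 kb on each side, which take in part of the plateaus. In the second of them H3KAc was thus no higher than around it, and all 3 of its bins had no IgG read in 11 bins. Regions of 3 kb were 3 in number and tied for the last places among the 5 widest. Besides chr6:129158001-129161000 they were chr6:128688001-128691000 and chr6:129363001-129366000. The latter lay 143 kb above the Cd69 position and held 26 H3KAc reads and no IgG read. In chr6:128688001-128691000, 56 H3KAc reads stood against a single IgG read and the ratio was 5.39 (0.929 to 217).

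**Figure D3:**
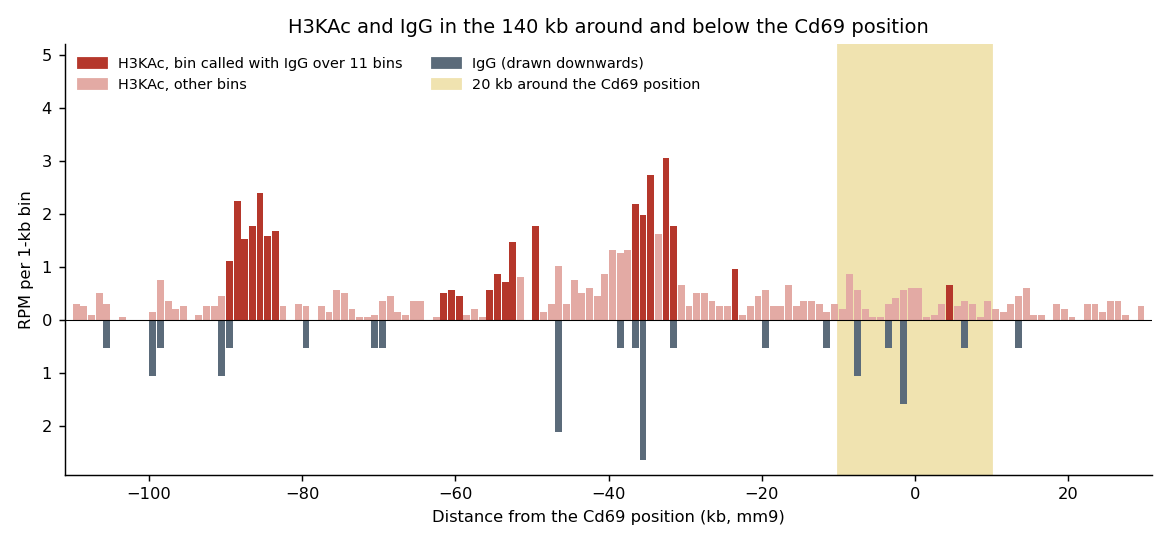
H3KAc (upwards) and IgG (downwards) in RPM per 1-kb bin around and below the Cd69 position, against the distance from it in kb; dark bars are bins called with IgG over 11 bins and the band is the 20 kb around the position. The 7-kb and 6-kb plateaus reach 2.38 and 3.04 RPM, while bins inside the band stay at or below 0.862 RPM.

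The Cd69 position itself carried no strong H3KAc peak. The 20 kb centred on it, chr6:129210001-129230000, held 135 H3KAc and 7 IgG reads, 0.342 RPM per kb (0.287 to 0.405) and 0.184 RPM per kb (0.0742 to 0.380). The ratio of 1.86 (0.877 to 4.71) was not distinguishable from 1 at this depth. With repeated reads kept it was 2.81 (1.72 to 4.88), but copies of 1 position were then counted as independent, so this interval may be too narrow. The lowest of its 20 bins held 1 read, the median bin 6 and the highest 17, and the median of all 2246042 covered bins was also 6. None of the 20 bins reached the top class. The highest bin, 129211001 to 129212000, exceeded 87.2% of all covered bins. The bin from 129224001 to 129225000 was called by the second rule on 13 H3KAc reads, of which 9 were on the plus strand, and no IgG read. Within 10 kb the ratio was 1.73 (0.648 to 6.53). In the 40 kb around the position it was 2.42 (1.29 to 5.10), and in 100 kb, which takes in the 6-kb plateau, 3.43 (2.32 to 5.27). The position is rounded in the rule, and the gene's start site was not located on mm9.

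H3KAc was lowest towards the upper end of the complex, and the Klra genes come last in the RefSeq order. The part with the most was chr6:128700001-128800000, at 0.730 RPM per kb (0.692 to 0.768) with a ratio of 1.87 (1.48 to 2.40). From 129500001 on, the 8 parts had at most 0.213 RPM per kb, down to 0.108 RPM per kb (0.0940 to 0.124) in chr6:130100001-130200000, and the highest and lowest of the 18 parts differed 6.75-fold. The lower bound of the ratio was above 1 in 9 of the 18 parts, among them 6 of the 7 parts from 128900001 to 129600000. Parts of 100 kb were not counted outside the complex, so this number has no background share beside it. The exception among those 7, chr6:129000001-129100000, had a ratio of 1.40 (0.971 to 2.08). Among the parts low in H3KAc, chr6:129700001-129800000 had the second highest ratio of the 18, 2.45 (1.31 to 5.16), on 10 IgG reads. The first part, chr6:128500001-128600000, was the only one with an upper bound below 1, at 0.757 (0.605 to 0.957), and IgG was highest there, at 0.458 RPM per kb.

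The last 500 kb held no bin of the top class and 2 of the 62 bins called by the second rule. Over all chromosomes 0.974% of covered bins were in the top class, and the second rule called 1.54% of bins tested. Of the 500 bins of the span 405 were covered, and the median bin held 2 H3KAc reads and the highest 19. How many of them the second rule tested was not counted. The span was set after the values had been seen, and no gene was placed in it. H3KAc averaged 0.138 RPM per kb (0.131 to 0.145) and IgG 0.117 RPM per kb (0.0962 to 0.141), a ratio of 1.18 (0.971 to 1.44) that was not distinguishable from 1 at this depth. With repeated reads kept it was 1.49 (1.32 to 1.68), an interval that may be too narrow because copies of 1 position were then counted as independent. Of the 5 parts of 100 kb in this span, chr6:130100001-130200000 had a lower bound above 1, with a ratio of 1.86 (1.02 to 3.79). In the first 1300 kb the values were 0.331 and 0.210 RPM per kb, a ratio of 1.57 (1.44 to 1.72). Bins without any read moved with this difference. They made up 19.0% of the last 500 kb (15.7 to 22.7) and 10.4% of the first 1300 kb (8.78 to 12.2). Bins with a read averaged 3.36 H3KAc reads per kb in the last 500 kb and 7.29 in the first 1300 kb, but nearly all of them were covered through H3KAc itself. Whether empty bins or lost reads with several alignments bear on the difference was not tested.

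**Figure D4:**
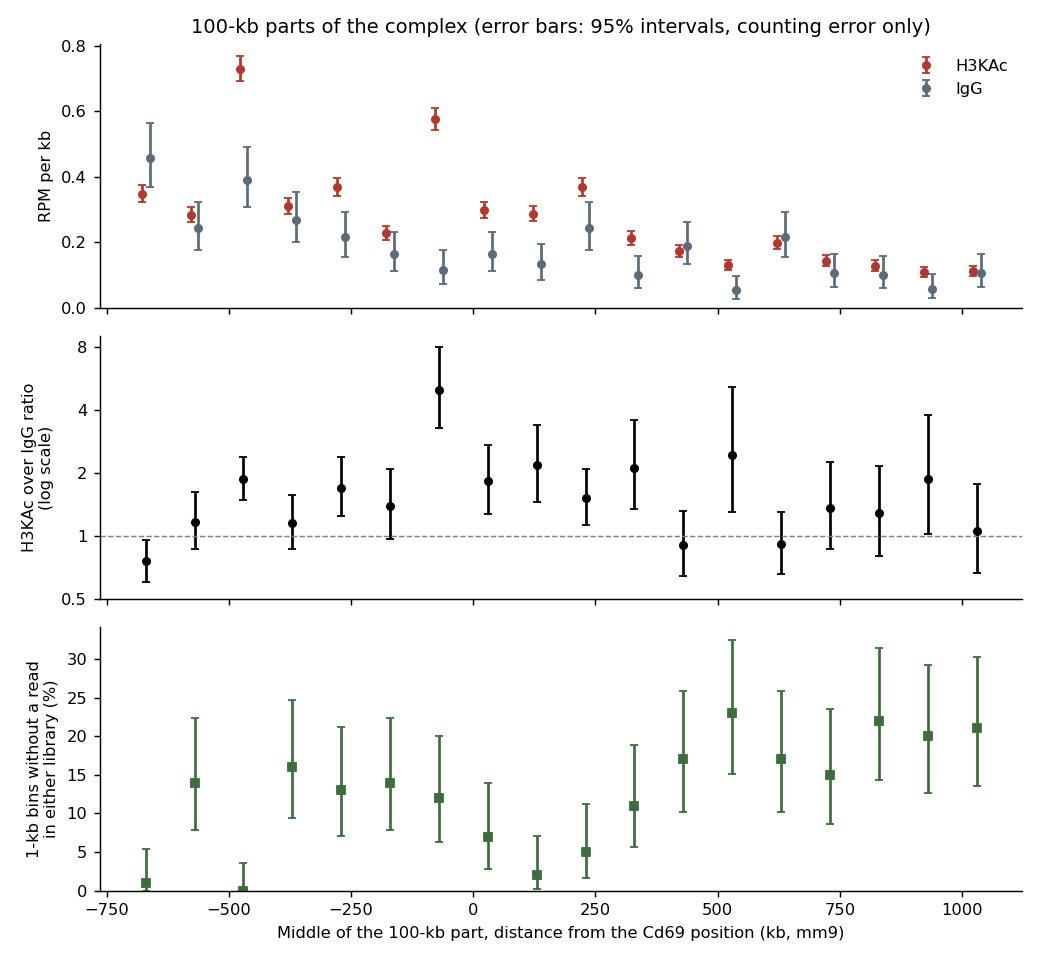
H3KAc and IgG levels (upper panel, RPM per kb), their ratio (middle panel, log scale) and the share of 1-kb bins without a read in either library (lower panel, %) for the 18 parts of 100 kb, by distance of their middle from the Cd69 position in kb; bars are 95% intervals. The ratio peaks at 4.96 in the part just below the Cd69 position, and the last 4 parts combine H3KAc levels of 0.108 to 0.144 RPM per kb with 15% to 22% empty bins.

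Bins without a read were spread through the complex. There were 230 of 1800 (12.8%, 11.3 to 14.4), against 0.833% (0.467 to 1.37) in the 1800 kb below and 27.9% (25.9 to 30.1) in the 1800 kb above. They formed 161 runs, 41 of them longer than 1 kb. The longest, of 6 kb each, were chr6:128855001-128861000 and chr6:129808001-129814000, followed by 5 kb each at chr6:128630001-128635000 and chr6:128905001-128910000. In chr6:128700001-128800000, the part with the most H3KAc, no bin was empty (0 of 100, which allows up to 3.62%), and in chr6:129700001-129800000 23.0% were. Empty bins add no read to either library, so the ratio over the covered bins of the complex was the same, 1.50 (1.39 to 1.63). Whether what left bins empty bears on the ratios was not tested.

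In 8 bins of the complex H3KAc was lower than IgG by the mirrored rule, an upper bound below 0.5 (1.02% of those tested, against 0.629% of all bins tested). IgG was highest at chr6:128556001-128557000, with 10 reads, then in those starting at 128535001, 128779001 and 129046001 with 7 each. Next came 4 bins tied at 6 reads, which start at 128518001, 128641001, 128797001 and 128892001. The first 4 bins held 9, 12, 7 and 9 H3KAc reads, and the ratio of the highest was 0.0866 (0.0312 to 0.237). Bins picked for many IgG reads, or by the mirrored rule, have ratios that lean downwards through that choice. Their ratios and bounds are given as a description. The tied bins held 16, 0, 17 and 19 H3KAc reads, and the upper bound of the one without H3KAc was 0.0818. The 8 bins with at least 6 IgG reads are not the same set as the 8 called by the mirrored rule. Those starting at 128518001, 128797001 and 128892001 had upper bounds of 0.801, 0.845 and 0.933 and did not meet that rule. All 8 bins with at least 6 IgG reads lay below the Cd69 position, and 3 of them in the first part of the complex.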

How the data were processed

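The authors deposited 1 file of aligned read positions per library, with no other measure. Its columns, from the column description deposited beside them, are chromosome, 0-based start and end, 2 placeholders and strand. All intervals were 35 bases long. Reads were aligned with Bowtie to mm9, per the submitters' processing notes. Neither the Bowtie version nor any read filter was given in the sources used here.

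Reads sharing chromosome, 5' end and strand were counted once, moved 100 bp along their strand and assigned to 1-kb bins, scaled to RPM. Ratios have exact conditional binomial (Clopper-Pearson) 95% intervals, levels exact Poisson ones. Bins of the top class or of the second rule were joined across at most 1 bin. The named regions are all top-class regions (at most 10), bins called by the first rule, the 5 widest regions of the second, the 5 bins with most IgG reads, the 3 longest empty runs and the 20 bins around the Cd69 position, with ties named too. The members and lists were chosen with earlier results of these data known. A motif search of the Cd69 promoter was not run. Calling by the first rule was tested on simulated Poisson counts, with an outcome not given here. The second rule and the top class were not tested in this way. Depth and its limits are given above. Software was pandas 2.3.3, scipy 1.17.1 and numpy 2.4.6 on Python 3.11.15, with matplotlib 3.10.9 for plots.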

Additional observations from a re-analysis of the deposited data

Results flagged for a closer look

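Reads removed as repeats of a position lie outside the counts above. Their H3KAc over IgG ratio, per 1000000 deposited reads, had a lower bound above 1 in 2 of the 8 top-class regions. In chr6:128749001-128750000, 35 H3KAc reads and no IgG read were removed, with a lower bound of 3.14 for the ratio. In chr6:129185001-129188000, 13 and none were removed, with a lower bound of 1.06. Neither region had an IgG position, so no IgG repeat could occur there. The other top-class regions had lower bounds below 1. Of these, only chr6:128788001-128790000 had a ratio of removed reads below 1, at 0.199 (0.101 to 0.382). Over the whole complex the ratio of removed reads was 0.177 (0.162 to 0.192). Copies of 1 position were counted as independent, so these intervals may be too narrow.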

How the results depend on the processing

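The ratio of the complex stayed between 1.41 and 1.65 in 7 alternatives, the 1.65 (beyond its interval) with all reads as deposited. In the 6 of these that keep all bins it exceeded 1377 to 1385 of 1386 windows (1394 of 1398 with shifted windows). Windows that overlap the complex, shifted or not, were counted. The H3KAc level of the complex relative to all covered bins, 0.623, became 0.610 with all reads and 0.606 with thinned H3KAc. With the plus and the minus strand it became 0.639 and 0.607. These levels include the empty bins of the complex, whereas the mean they are divided by is over covered bins only. The H3KAc over IgG ratio around the Cd69 position became 6.33 (1.10 to 254) with the plus strand, where it rests on 1 IgG read. It lay between 1.11 and 2.81 in the other 7 alternatives. The 2 called bins became 32 with all reads, 10 and 0 with lower bounds above 1 and 4, and 0 with 500-bp bins, either strand or thinned H3KAc. The 62 bins of the second rule became 230 with all reads (all 62 shared), 184 and 11 with lower bounds above 1 and 4, 25 with either strand and 19 with thinned H3KAc (14 shared), and 71 with 500-bp bins. The 11 top-class bins became 6 and 21 with the top 0.5% and 2%, and 8 to 12 otherwise. For the first rule with a lower bound above 1 the share over all bins tested was 0.651%. Shares over all bins are not given for the other alternatives. These counts therefore do not show whether the complex changed more than other bins. The 9 parts with a lower bound above 1 became 13 with all reads, 9 with reads not moved or IgG rescaled, 7 and 6 with the plus and the minus strand, and 5 with thinned H3KAc. Over the last 500 kb the ratio became 1.49 (1.32 to 1.68) with all reads and lay between 1.09 and 1.28 in 5 other alternatives. In chr6:129100001-129200000 the ratio stayed between 4.64 and 9.11 over 6 alternatives, with a lower bound of 2.70 or more. Of the top-class and widest regions, chr6:128749001-128750000, chr6:129130001-129137000 and chr6:129185001-129188000 kept lower bounds above 1 in all 6 alternatives (lowest 1.23, 2.02 and 1.81). Lower bounds of the other 6 top-class regions fell to 1 or less with a single strand. Thinning and single strands use fewer reads. With all reads, copies of 1 position were counted as independent, so those intervals may be too narrow. Other causes were not tested. Alternatives on windows, on the relative level, on the last 500 kb and without the highest bins were chosen after seeing the data. No paired analysis was possible because each group has 1 library.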
